A study of Mus musculus with 4 samples.

Results

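The 10 genes described here belong to the antioxidant response that is driven by the transcription factor NRF2, and they were chosen by their symbols as *Nfe2l2*, *Keap1*, *Nqo1*, *Hmox1*, *Gclc*, *Gclm*, *Txnrd1*, *Srxn1*, *Slc7a11* and *Gsr*. All 10 genes, out of 21945 in the table, and 19 of its 34200 transcripts carried one of these symbols, and every one of the 19 transcripts was used. They were measured by stranded RNA-seq of polyadenylated RNA from NIH/3T3 cells, an immortalised line of mouse fibroblasts. KD cells were co-transfected by lipofection with a pair of siRNAs against *Setd2*, which encodes a histone methyltransferase of lysine 36 of histone H3. WT cells received a Scrambled siRNA, and in both groups the final concentration was 10 nM and RNA was taken after 48 h. Each group had 2 libraries. The series describes separate transfections but not which of them gave these libraries, and p-values measure the spread between these samples, part of which may be technical.

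As background, NRF2, the product of *Nfe2l2*, is held at a low level by KEAP1, which hands it to a CUL3 ubiquitin ligase for degradation. Oxidants and electrophiles modify cysteines of KEAP1, NRF2 then accumulates, pairs with a small MAF protein and binds antioxidant response elements of genes for glutathione synthesis, thioredoxin recycling and detoxification. Several of these genes also answer to other factors, such as BACH1 at *Hmox1* and ATF4 at *Slc7a11*.

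The level of a transcript is given in normalised estimated counts, computed for each group from the deposited mean over the 4 libraries and the deposited effect, and log2(fold change) is that effect converted from the natural log, taken as its scale because it is the default of Sleuth, the software behind these values. Because only these summaries over libraries were used, sequencing depth is unknown, counting error has no interval here, and whether single KD and WT libraries overlap was not examined. Adjusted p-values are from limma's moderated test with Benjamini-Hochberg adjustment over all 34200 transcripts, and a transcript is called when its adjusted p-value is under 0.05. The targeted gene checks the labels: the single tested *Setd2* transcript was at 923.3 in KD and 3680.4 in WT, a log2(fold change) of −1.99 (adjusted p = 0.0144).

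Of the reference genes, the main *Actb* transcript was at 113066 in KD and 82423 in WT (log2(fold change) 0.46, adjusted p = 0.0414), a call that was lost with centring on GC content (0.38, adjusted p = 0.0675). Of its 31-base words, 64.7% occur in no other annotated gene. Here and below, a word on the opposite strand of another gene was counted as shared, although the libraries were stranded. A *Gapdh* transcript (ENSMUST00000117757.8) had a log2(fold change) of 1.48 (adjusted p = 0.0152), and the other tested one (ENSMUST00000118875.7) had 0.18 and was not called (adjusted p = 0.640). Only 7.88% and 15.9% of their words occur in no other gene, so their levels depend on how reads were split among genes; the deposited technical variance of that assignment corresponds to an SD of 0.06 and 0.05 on the log2 scale. Scaling on the summed *Actb* level would lower each log2(fold change) by 0.46, whereas the median over all transcripts was −0.01. Of 11 fibroblast markers, all 11 were tested, with a summed level of 1153288 in KD and 1282622 in WT and *Col1a2* as the most abundant in WT, and 2 had a higher and 3 a lower transcript in KD. The 2 were *Fn1*, the most abundant in KD (388093), and *Dcn*, with log2(fold changes) of their summed levels of 0.49 and 0.42. The 3 were *Col1a1*, *Col1a2* and *Col3a1*, with −0.68, −0.68 and −0.92. Of 5 epithelial markers, 2 were tested, with a sum of 157.8 in KD and 119.4 in WT. *Cdh1* was at 140.5 in KD and 90.3 in WT, and *Krt8* went the other way (17.3 and 29.1). The 3 tested leukocyte markers summed to 408.8 in KD and 361.4 in WT. Of these, *Cd68* was at 391.3 in KD and 303.1 in WT. *Ptprc* (17.4 in KD and 52.0 in WT) and *Adgre1* (0 and 6.3) went the other way. The 3 endothelial markers, led by *Pecam1* in KD and by *Cdh5* in WT, summed to 84.1 in KD and 57.3 in WT. None of the tested markers of these other cell types was called. *Epcam*, *Krt5*, *Krt18* and *Cd3e* had no row among the transcripts tested. In bulk RNA, fewer cells of a kind and less RNA per cell cannot be told apart.

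*Slc7a11*, *Gclc*, *Gclm* and *Gsr* had a transcript called higher in KD, *Hmox1* and *Srxn1* had one called lower, and *Nfe2l2*, *Keap1*, *Nqo1* and *Txnrd1* had no called transcript. In all, 7 of the 19 transcripts were called, against 9.68% of all transcripts. Of the 7, 5 were higher in KD, against 5.44% of all transcripts, and 2 were lower, against 4.24%. Their levels bear on this count, since calls are more frequent among abundant transcripts. Among members with a mean of at least 100, 7 of 16 were called, against 15.6% of all such transcripts, and 7 of 12 above a mean of 1000, against 20.8%. By gene, 4 of the 10 had a higher transcript, against 7.47% of all genes, and 2 had a lower one, against 5.93%. The median log2(fold change) was 0.38 over the 19 transcripts, 0.10 over all transcripts with a mean of at least 1000 and −0.01 over all transcripts. The members were picked by name with results of these data known, so these shares are a description.

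The choice of test and of scaling bears on the calls. Without the trend of variance on the mean, limma's moderated test called 127 transcripts in all (0.371%) and 0 of the 19, whose 7 called members then had adjusted p-values from 0.109 to 0.161. At an unadjusted p under 0.05 that test gave 7 of the 19, 5 higher and 2 lower, against 24.0% of all transcripts, and the Wald test with adjustment called 8, against 18.2%. With centring on GC content 4 members were higher and 2 lower, against 3.35% and 2.88% of all transcripts. Relative to *Actb*, 3 members were higher, against 1.55% of all transcripts, and 5 of the 19 were lower, a share near the 27.2% of all transcripts. With this scaling 5.40% of all calls were higher in KD, in place of 56.2%.

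**Figure D1:**
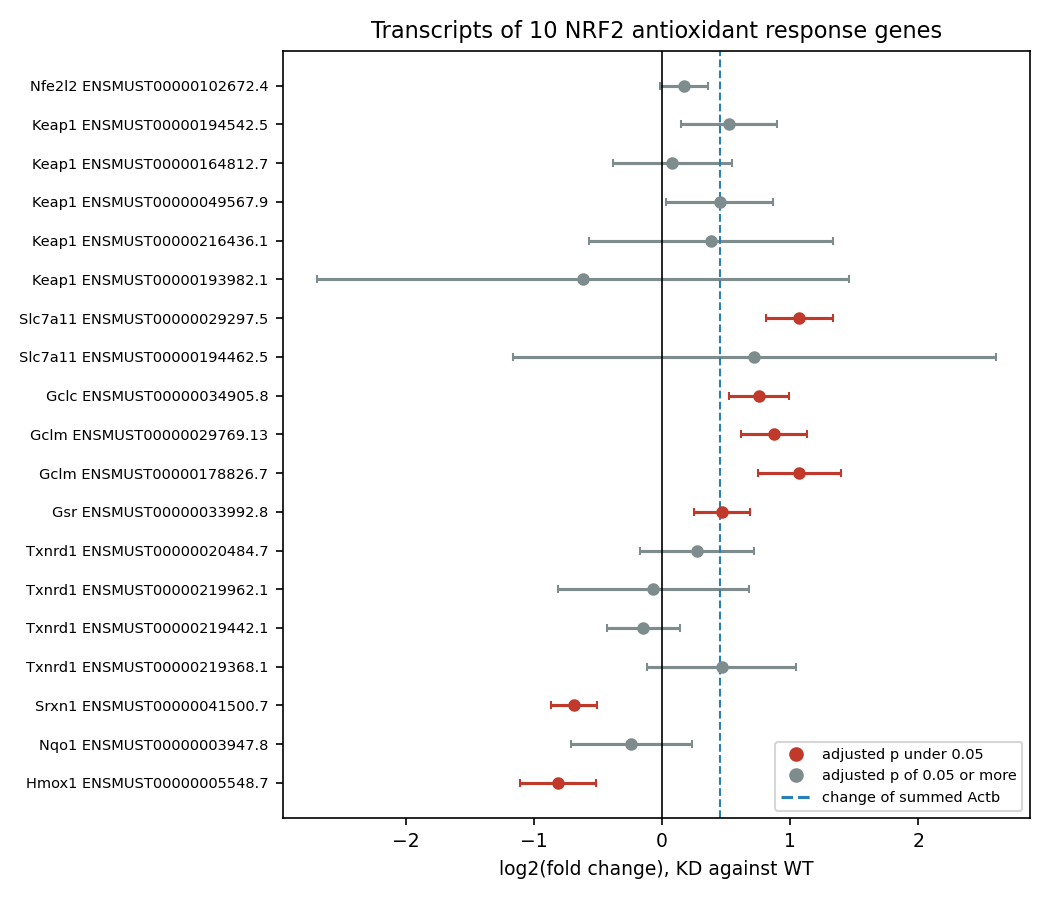
Log2(fold change) of KD against WT for the 19 tested transcripts of the 10 genes, with 95% confidence intervals from limma's moderated standard error and called transcripts in red. The red points lie above 0.4 for *Slc7a11*, *Gclc*, *Gclm* and *Gsr* and below −0.6 for *Srxn1* and *Hmox1*; the dashed line marks the change of summed *Actb* (0.46), relative to which *Gsr* lies near 0 and *Nfe2l2*, the main *Txnrd1* transcript and 3 *Keap1* transcripts turn negative.

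*Nfe2l2*, on the minus strand of chromosome 2 from 75675513 to 75704641 (GRCm38), had 1 tested transcript of 5 exons (ENSMUST00000102672.4). Its level was 6518 in KD and 5791 in WT. The log2(fold change) was 0.17, with a 95% confidence interval from −0.02 to 0.36 (adjusted p = 0.209). The interval holds 0 and does not reach past a rise of 28.2%. Relative to *Actb* the direction turned, to −0.29, and the transcript was called lower (adjusted p = 0.0448). That p-value takes the *Actb* change as exact. NRF2 is regulated largely through its stability, which RNA levels do not measure.

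*Keap1*, the adaptor that captures NRF2, lies on the minus strand of chromosome 9 and had 5 tested transcripts. The most abundant one (ENSMUST00000194542.5) was at 1374 in KD and 956.1 in WT, with a log2(fold change) of 0.52 (95% confidence interval 0.15 to 0.90, adjusted p = 0.0920). This interval lies above 0, but the transcript did not pass the adjustment over all transcripts, and only the Wald test called it (adjusted p = 0.0210). In limma's moderated test it had 0.34 with centring on GC content (adjusted p = 0.229) and 0.07 relative to *Actb* (adjusted p = 0.744). The other 4 had log2(fold changes) from −0.62 to 0.45. The transcripts of the gene are hard to separate, since 0.0320% of the 31-base words of the most abundant one occur in no other tested *Keap1* transcript, and 13.7% are shared with *Gm16754*. The SD of that transcript from the deposited technical variance of read assignment was 0.11 on the log2 scale. Summed over its transcripts, *Keap1* was at 2558 in KD and 1959.9 in WT. The most abundant transcript made up 55.1% of the level per kb in KD and 50.3% in WT.

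*Slc7a11* encodes the light chain of the cystine and glutamate exchanger, which brings in cystine, a source of the cysteine that limits glutathione synthesis. It lies on the minus strand of chromosome 3, and its main transcript (ENSMUST00000029297.5, 12 exons, 50364938 to 50443611) was at 3540.1 in KD and 1684 in WT. The log2(fold change) of 1.07 (95% confidence interval 0.81 to 1.33, adjusted p = 0.0183) corresponds to a level 110.2% higher in KD, with bounds of 75.5% and 151.7%. Relative to *Actb* it was 0.62 and still called. The other tested transcript (ENSMUST00000194462.5) had a mean of 12.4, and its interval ran from −1.16 to 2.60.

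*Gclc* encodes the catalytic subunit of glutamate-cysteine ligase, the first enzyme of glutathione synthesis. Its single tested transcript (ENSMUST00000034905.8), with 16 exons on the plus strand of chromosome 9 from 77754535 to 77794485, was at 4916 in KD and 2911 in WT. It had a log2(fold change) of 0.76 (95% confidence interval 0.52 to 0.99, adjusted p = 0.0232). Relative to *Actb* it was 0.30 and no longer called (adjusted p = 0.0661).

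*Gclm*, on the plus strand of chromosome 3, encodes the modifier subunit, which makes the same ligase more efficient. Its longer transcript (ENSMUST00000029769.13, 5589 bases, 122245557 to 122270732) was at 3282 in KD and 1787 in WT, with a log2(fold change) of 0.88 (95% confidence interval 0.62 to 1.13, adjusted p = 0.0215). The shorter one (ENSMUST00000178826.7, 1002 bases) was at 2297 in KD and 1091.5 in WT, with a log2(fold change) of 1.07 (95% confidence interval 0.75 to 1.40, adjusted p = 0.0225). Both transcripts of *Gclm* thus moved the same way, and their intervals overlap. The shorter transcript made up 77.3% of the level per kb in WT and 79.6% in KD, although 2.78% of its 31-base words occur in no other tested *Gclm* transcript. Levels of *Gclm* per kb thus depend on how reads were split between its transcripts. The SD of that assignment, from the deposited technical variance, was 0.03 on the log2 scale for the longer transcript and 0.04 for the shorter.

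Promoter windows from 250 bases before to 50 after the start site were taken from RefSeq (GRCm38.p6), where 7 of the 10 genes had 9 windows; *Hmox1*, *Gclc* and *Gsr* were not searched. They were searched on both strands for the core of the antioxidant response element (TGACNNNGC), for AP-1 (TGANTCA) and for the element bound by ATF4 and C/EBP factors (CARE, TGATGNAA). An element core and AP-1 can overlap, but no matches in these 9 windows did. The core was found in 4 of the 9 windows, those of *Nfe2l2*, *Gclm* and *Srxn1* and 1 of 3 for *Txnrd1*, against 12.4% of 32851 windows. Among the 7 genes, AP-1 was found for *Srxn1* alone, against 7.81% of windows, and CARE for *Slc7a11* alone, against 3.97%. A match is a description of letters, and nothing about binding was measured. The windows of 3 called genes that differ in these motifs are shown, with matches in capitals, 5′ to 3′ on the strand of the gene. *Gclm* and *Slc7a11* rose and *Srxn1* fell, but the core occurs for both *Gclm* and *Srxn1*. Whether a motif goes with a direction was not tested. The *Gclm* window (chr3:122245307-122245606, plus strand) holds a core on the opposite strand at −134 to −126, counted with the start site as 0. The *Slc7a11* window (chr3:50443564-50443863, minus strand) holds CARE at −66 to −59 and, inverted, at −47 to −40. The *Srxn1* window (chr2:152105274-152105573, plus strand) holds AP-1 at −102 to −96 and at −45 to −39, and an inverted core at 28 to 36.
Gclm: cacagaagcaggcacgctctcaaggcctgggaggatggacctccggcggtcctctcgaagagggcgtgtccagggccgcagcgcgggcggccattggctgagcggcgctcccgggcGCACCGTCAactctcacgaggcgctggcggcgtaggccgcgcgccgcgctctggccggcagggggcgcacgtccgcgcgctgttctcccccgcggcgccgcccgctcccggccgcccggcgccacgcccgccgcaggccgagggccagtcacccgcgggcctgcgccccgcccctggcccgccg
Slc7a11: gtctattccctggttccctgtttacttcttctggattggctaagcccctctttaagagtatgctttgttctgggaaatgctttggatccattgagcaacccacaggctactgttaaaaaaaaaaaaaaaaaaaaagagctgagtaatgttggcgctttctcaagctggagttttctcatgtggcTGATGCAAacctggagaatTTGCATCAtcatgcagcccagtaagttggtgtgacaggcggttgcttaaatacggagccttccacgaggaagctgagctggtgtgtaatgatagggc
Srxn1: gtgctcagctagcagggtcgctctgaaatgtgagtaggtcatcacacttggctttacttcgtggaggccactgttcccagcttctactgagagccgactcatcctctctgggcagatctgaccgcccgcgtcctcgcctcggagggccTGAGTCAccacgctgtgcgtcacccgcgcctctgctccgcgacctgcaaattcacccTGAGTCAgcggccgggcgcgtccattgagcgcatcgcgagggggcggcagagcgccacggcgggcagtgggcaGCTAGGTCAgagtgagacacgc

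*Gsr* encodes glutathione reductase, which returns oxidised glutathione to its reduced form with NADPH. Its transcript (ENSMUST00000033992.8, 13 exons, chromosome 8, plus strand, 33653238 to 33698163) was at 4478 in KD and 3232 in WT. This gave a log2(fold change) of 0.47 (95% confidence interval 0.25 to 0.69, adjusted p = 0.0401). This was the call nearest the threshold among the 7, and it was lost with centring on GC content (0.43, adjusted p = 0.0567) and relative to *Actb* (0.01, adjusted p = 0.907).

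*Txnrd1*, the cytosolic thioredoxin reductase, lies on the plus strand of chromosome 10 and had 4 tested transcripts, none of them called. The main one (ENSMUST00000020484.7) was at 12160.1 in KD and 10059.8 in WT, with a log2(fold change) of 0.27 and a 95% confidence interval from −0.17 to 0.72 (adjusted p = 0.365). The others had log2(fold changes) of −0.07, −0.14 and 0.46, and 1.32% to 11.6% of their 31-base words occur in no other tested transcript of the gene. The SD from the deposited technical variance of read assignment was 0.02 on the log2 scale for the main transcript. For the others it was 0.04, 0.24 and 0.18. Relative to *Actb*, the one at −0.14 (ENSMUST00000219442.1) was at −0.60 and called (adjusted p = 0.0204). The main transcript made up 66.3% of the level per kb in KD and 61.3% in WT.

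*Srxn1* encodes sulfiredoxin, which repairs over-oxidised peroxiredoxins. Its 2-exon transcript (ENSMUST00000041500.7, chromosome 2, plus strand, 152105524 to 152111376) was at 4553 in KD and 7322 in WT. The log2(fold change) was −0.69 (95% confidence interval −0.86 to −0.51, adjusted p = 0.0190), and the SD within groups, 0.04 on the log2 scale, was the smallest among the called members. The direction held under all scalings tried, with −0.78 when centred on GC content and −1.14 relative to *Actb*.

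*Hmox1* encodes the inducible haem oxygenase, which breaks haem down to biliverdin, iron and carbon monoxide. Its transcript (ENSMUST00000005548.7, 5 exons, chromosome 8, plus strand, 75093621 to 75100589) was at 8299.6 in KD and 14591 in WT. The log2(fold change) was −0.81 (95% confidence interval −1.11 to −0.52, adjusted p = 0.0280), a level 43.1% lower in KD. The direction held under all scalings tried, with −0.91 when centred on GC content and −1.27 relative to *Actb*.

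*Nqo1* encodes a quinone reductase that is widely used as a readout of NRF2. Its transcript (ENSMUST00000003947.8, 6 exons, chromosome 8, minus strand, 107388225 to 107403206) was at 10923 in KD and 12894 in WT. The log2(fold change) was −0.24, with a 95% confidence interval from −0.71 to 0.23 (adjusted p = 0.446). The SD within groups was 0.26 on the log2 scale, against a median of 0.08 for transcripts with a mean of at least 1000, so a change of this size was not detectable here. Relative to *Actb*, with the *Actb* change taken as exact, it was −0.70 and called (adjusted p = 0.0480).

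Compared per kb of transcript, the summed levels of the 10 genes in WT ran from 186.6 for *Slc7a11* to 9299.6 for *Hmox1*. *Nqo1* (8303), *Txnrd1* (4937), *Srxn1* (2604) and *Nfe2l2* (2339.8) followed *Hmox1* in WT. In KD, *Nqo1* (7034) was first, followed by *Txnrd1* (5516) and *Hmox1* (5289.7). *Slc7a11* was last in both groups. These are sums with no test between neighbouring genes, and the spread of a sum over libraries was not computed.

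**Figure D2:**
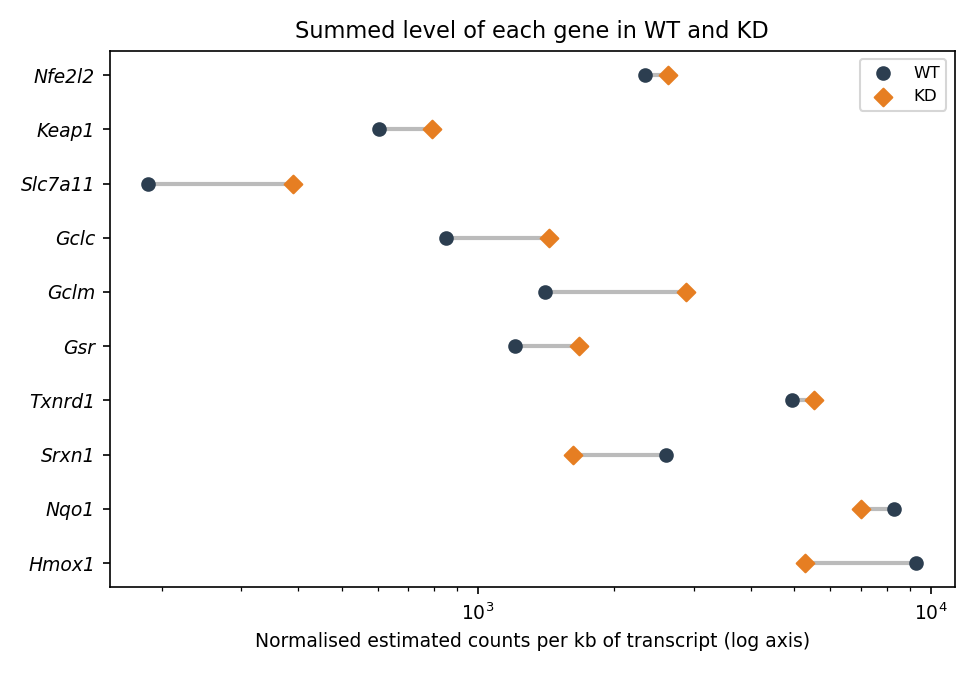
Level of each gene in WT (circles) and KD (diamonds), as normalised estimated counts per kb summed over its tested transcripts on a log axis, 1 value per group with no error bar. The gap is widest for *Slc7a11* (186.6 to 390.5) and *Gclm* (1409 to 2879), and *Hmox1* moves the other way, from 9299.6 to 5289.7.

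All 7 called members had a mean of at least 1000, and the 3 members under 100 had the widest intervals. The SDs of the called members within groups ran from 0.04 to 0.15 on the log2 scale, and those of the uncalled members with a mean of at least 1000 from 0.05 to 0.42. GC content of the 19 transcripts ran from 40.7% to 61.5%, around a median of 49.2% for all transcripts.

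**Figure D3:**
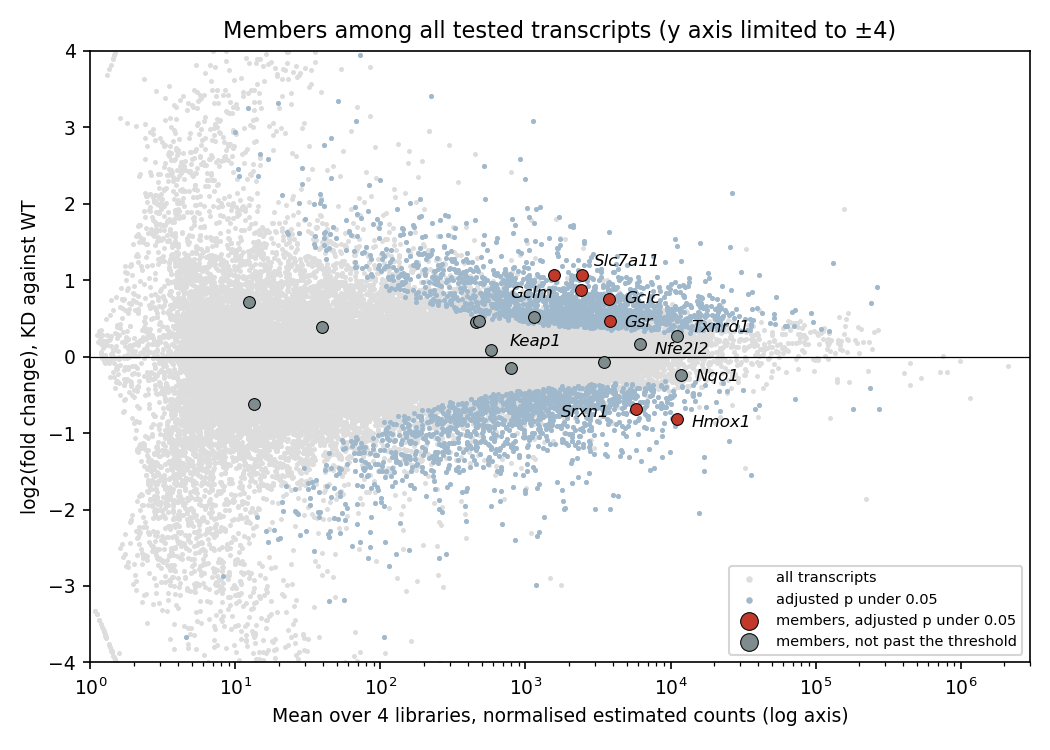
Log2(fold change) against the mean level of all tested transcripts (grey, with called ones in blue) and of the 19 members (large points), on a log axis of normalised estimated counts. The 7 called members (red) have means between 1583 and 11005, and the uncalled ones lie nearer 0 or at lower levels.

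Beyond the 10 genes, 6 lists of related genes were examined. Of 93 tested genes, 24 had a higher and 10 a lower transcript in KD, against the shares of 7.47% and 5.93% of all genes given above, and the median log2(fold change) of their summed levels was 0.13, against −0.03 for all genes and 0.04 for genes with at least 100. By level, 38 of their 182 transcripts were called, 35 of the 148 with a mean of at least 100, against 15.6% of all such transcripts, and 29 of the 92 with a mean of at least 1000, against 20.8%. None of the lists was tested as a set, so their counts are a description and set no list apart. With centring on GC content 16 had a higher and 5 a lower transcript, against 4.67% and 4.10% of all genes, and relative to *Actb* 7 and 47, against 2.17% and 34.0%. Among the 11 regulators of NRF2, 6 had a higher and 1 a lower transcript, with a median of 0.41. These counts were 3 and 0 with centring on GC content and 3 and 4 relative to *Actb*. Of the regulator transcripts with a mean of at least 1000, 7 of 13 were called, against 20.8% of all such transcripts. *Bach1*, a repressor that competes with NRF2 at *Hmox1*, was at 2543 in KD and 1449.96 in WT (log2(fold change) 0.81, adjusted p = 0.0183). *Sqstm1*, encoding the autophagy receptor p62 that binds KEAP1, was at 29703 in KD and 18016 in WT (0.72, adjusted p = 0.0180). The main transcript of *Mafg*, a small MAF partner, had a log2(fold change) of 0.40 (adjusted p = 0.0390), which turned to −0.06 relative to *Actb* and was not called with centring on GC content (0.30, adjusted p = 0.0784). *Nfe2l1*, a relative of *Nfe2l2*, had 3 called transcripts out of 6, whereas its most abundant transcript (0.52) was not called (adjusted p = 0.0863). A called *Nfe2l1* transcript with a mean of 630.1 (ENSMUST00000169828.7) rose by 1.49 (adjusted p = 0.0171) and was also called in the Wald test, with centring on GC content and relative to *Actb*. Another with a mean of 2178 (ENSMUST00000167110.7) rose by 0.92 (adjusted p = 0.0318), but was not called relative to *Actb* (adjusted p = 0.0678). Between its own transcripts *Nfe2l1* is hard to separate, since 0.755% to 1.95% of the words of the 6 occur in no other tested transcript of the gene. For the called ones with means of 630.1, 2178 and 14.2, the SD from read assignment was 0.23, 0.11 and 1.29 on the log2 scale. The largest log2(fold change) of the 3 called transcripts, 2.36, is of the one with a mean of 14.2 (ENSMUST00000107659.7). Its call was lost in the Wald test (adjusted p = 0.283) and with centring on GC content (2.14, adjusted p = 0.0520). Relative to *Actb* it was 1.91 and called (adjusted p = 0.0275). *Gsk3b*, a kinase that marks NRF2 for degradation, fell by 0.46 (adjusted p = 0.0350). Its call was lost with centring on GC content (−0.39, adjusted p = 0.0571). The *Cul3* transcripts, of the ligase scaffold, had 0.11 and −0.22 (adjusted p = 0.402 and 0.289). With centring on GC content they had 0.36 and 0.17, so the second turned, and neither was called (adjusted p = 0.0634 and 0.415). Relative to *Actb* they had −0.35 and −0.67, and both were called (adjusted p = 0.0309 and 0.0174).

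In the glutathione list, 7 of 25 tested genes had a higher and 4 a lower transcript, against 7.47% and 5.93% of all genes, with a median of 0.06. Centring on GC content gave 5 and 2, against 4.67% and 4.10% of all genes, and scaling on *Actb* 2 and 13, against 2.17% and 34.0%. Of the transcripts of this list with a mean of at least 1000, 9 of 21 were called, against 20.8% of all such transcripts. *Chac1*, which degrades glutathione, was at 6439 in KD and 2775 in WT (1.21, adjusted p = 0.0160), and *Gsto1*, a glutathione transferase, rose by 0.93 (adjusted p = 0.0181). A *Gpx1* transcript with a mean of 4.55 fell by 3.66 (adjusted p = 0.0450), while the summed level of this glutathione peroxidase gene had a log2(fold change) of 0.22, and a *Glrx2* transcript with a mean of 89.4 fell by 1.20 (adjusted p = 0.0415). Both calls were lost with centring on GC content, at log2(fold changes) of −3.77 and −1.03 (adjusted p = 0.0520 and 0.0651). That of *Gpx1* was also lost in the Wald test (adjusted p = 0.232). The main transcript of *Gpx4*, which reduces lipid peroxides, had 0.43 (adjusted p = 0.0544), and 25.9% of its words occur in no other gene.

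Among 18 genes of thioredoxin and peroxide removal, 4 had a higher and 2 a lower transcript, against 7.47% and 5.93% of all genes, with a median of 0.14. The counts were 4 and 1 with centring on GC content, against 4.67% and 4.10% of all genes. Relative to *Actb* they were 2 and 10, against 2.17% and 34.0%. Of the transcripts of this list with a mean of at least 1000, 6 of 20 were called, against 20.8% of all such transcripts. Of the 8 tested transcripts of *Txnrd2*, the mitochondrial thioredoxin reductase, 1 was called (1.00, adjusted p = 0.0261), but 0.160% of its words occur in no other tested transcript of the gene, whose summed level had 0.67. The main transcript of *Txn2*, the mitochondrial thioredoxin, rose by 0.83 (adjusted p = 0.0190). *Txnip*, an inhibitor of thioredoxin, fell by 0.69 (adjusted p = 0.0353, with 80.1% of its words in no other gene). *Sesn3* fell by 0.35 (adjusted p = 0.0464), a call that was lost with centring on GC content (−0.28, adjusted p = 0.0854). The *Txn1* transcript had 0.47 (adjusted p = 0.0608), and the main transcript of the peroxiredoxin gene *Prdx1* had 0.44 (adjusted p = 0.181, with 81.9% of its words in no other gene), so neither passed the threshold.

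For the supply of NADPH, 4 of 12 genes had a higher and 0 a lower transcript in limma's moderated test, with a median of 0.12. With centring on GC content 2 were higher and 0 lower, and relative to *Actb* 0 were higher and 6 lower. For each list of this paragraph, the shares of all genes to compare are 7.47% higher and 5.93% lower. They are 4.67% and 4.10% with centring on GC content, and 2.17% and 34.0% relative to *Actb*. These shares are not matched for level. Of transcripts with a mean of at least 1000, 3 of 12 were called for NADPH supply. There were 1 of 8 for haem and iron and 3 of 18 for detoxification and export, against 20.8% of all such transcripts. An *Aldh1l2* transcript with a mean of 531.0 rose by 0.84 (adjusted p = 0.0237), while the main one had 0.08 (adjusted p = 0.437) and the summed level of the gene 0.11. *Taldo1*, encoding transaldolase, rose by 0.65 (adjusted p = 0.0381, with 74.8% of its words in no other gene). Its call was lost with centring on GC content (0.56, adjusted p = 0.0594). *G6pdx*, encoding the first enzyme of the pentose phosphate pathway, had 0.16 (adjusted p = 0.351). Among 9 genes of haem and iron, 1 was higher and 1 lower, with a median of 0.08, against 0 and 1 with centring on GC content and 0 and 6 relative to *Actb*. *Slc40a1*, the iron exporter ferroportin, was at 453.5 in KD and 1478 in WT (−1.70, adjusted p = 0.0152). The haem transporter gene *Slc48a1* rose by 0.46 (adjusted p = 0.0259), but it was not called with centring on GC content (0.24, adjusted p = 0.0898) or relative to *Actb* (0.0012, adjusted p = 0.989). *Fth1*, the heavy chain of ferritin, had 0.57 (adjusted p = 0.0569) and was not matched to the annotation, so its shared sequence was not examined. Among 18 genes of detoxification and export, 2 were higher and 2 lower, with a median of 0.07, against 2 and 1 with centring on GC content and 0 and 8 relative to *Actb*. An *Esd* transcript with a mean of 967.2 rose by 1.02 (adjusted p = 0.0344, with 54.3% of its words in no other gene), while the 2 more abundant ones had 0.46 and 0.42 and were not called (adjusted p = 0.0890 and 0.0731), and the summed level of the gene had 0.46. *Abcc4* rose by 0.78 (adjusted p = 0.0253), and *Ephx1* and *Ugdh* fell by 0.64 and 0.43 (adjusted p = 0.0233 and 0.0337). With centring on GC content *Ugdh* had −0.35 and was not called (adjusted p = 0.0561). Few words of some named transcripts occur in no other tested transcript of their gene. The shares were 1.61% for *Aldh1l2*, 2.11% for *Txnip*, 2.59% for *Taldo1*, 3.37% for *Gpx1* and 3.85% for *Esd*. They were 4.21% for *Ephx1*, 4.43% for *Abcc4* and 8.82% for *Sqstm1*. The values of these transcripts thus depend, to differing degrees, on how reads were split between transcripts. On the log2 scale, the SD from the deposited technical variance of read assignment was 0.01 for *Sqstm1* and *Taldo1*. It was 0.02 for *Ephx1*, 0.07 for *Abcc4*, 0.11 for *Esd*, 0.21 for *Aldh1l2* and 1.68 for *Gpx1*. Summed over transcripts, the log2(fold change) was −0.64 for *Txnip*, 0.65 for *Taldo1*, −0.66 for *Ephx1*, 0.71 for *Abcc4* and 0.72 for *Sqstm1*. Relative to *Actb*, the named rises of *Mafg*, *Aldh1l2*, *Taldo1*, *Slc48a1*, *Esd* and *Abcc4* were not called. Relative to *Actb*, the medians of all 6 lists were below 0, from −0.05 for the regulators to −0.40 for glutathione.

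**Figure D4:**
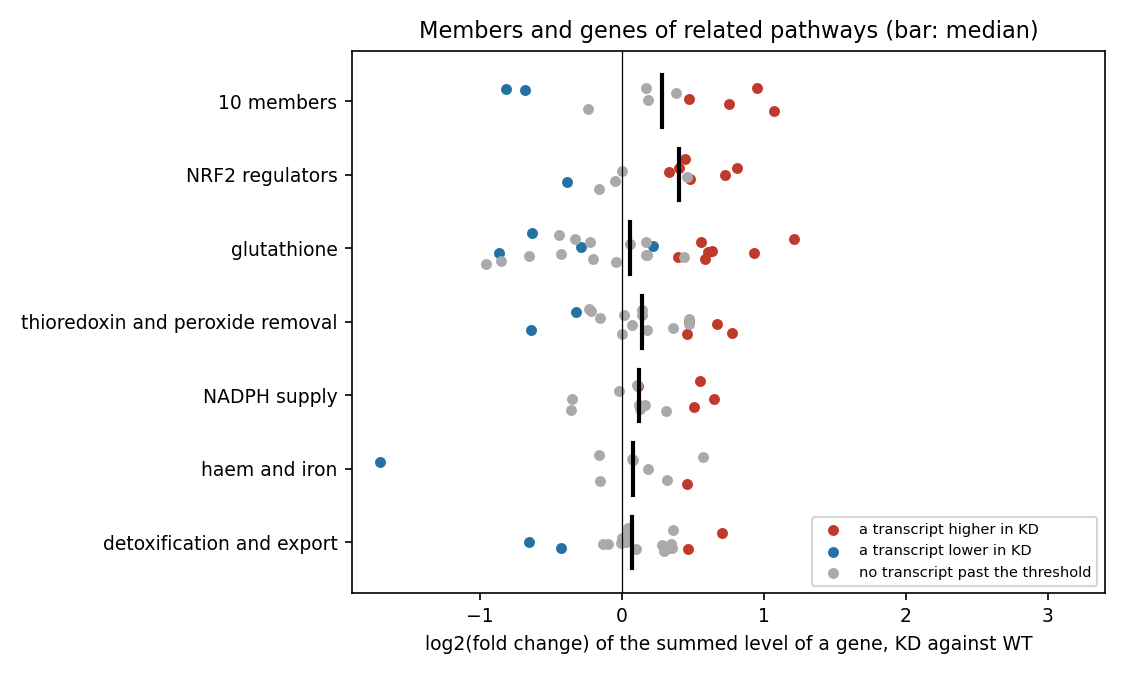
Log2(fold change) of the summed level of each gene, KD against WT, for the 10 members and for 6 lists of related genes, with the median of each as a bar. Genes with a transcript called higher are red, those with one called lower are blue; the bar lies at 0.28 for the members and between 0.06 and 0.41 for the lists, and below 0 in all of them relative to *Actb*.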

How the data were processed

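RNA-seq of 2 KD and 2 WT libraries of NIH/3T3 cells was analysed, grouped by the *Setd2* status in their labels. The authors removed adapters with BBDuk, quantified transcripts with Kallisto and compared the groups in Sleuth, and the submitters' processing notes name bcl2fastq 2.17, HISAT2 and sleuth. The deposited means and effects were taken, from Sleuth's column names and defaults and not from a statement of the authors, as natural log values of Kallisto's estimated counts, scaled for each library and with 0.5 added. For 1 alternative the q-values of the authors' likelihood ratio test were used as deposited. The Wald test was recomputed from the effect, the shrunken variance between libraries in the authors' model with KD, and the deposited technical variance. The shrunken variance of their model without KD was used only to recompute those q-values as a check. The other comparison columns, p-values and test statistics, were not used, nor was a table of combined p-values per gene. The effect is itself a value of the authors' comparison, used because the transcript table carries direction in no other column. It was divided by the natural log of 2, and group levels were the exponential of the mean plus or minus 0.5 times the effect, minus 0.5.

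The residual variance was computed from the deposited variance over 4 libraries and the effect, and tested in limma 3.58.1 (R 4.3.3) with a trend on the mean, without covariates, after a check on simulated data. By identifier, 33720 of 34200 transcripts (98.6%) matched GENCODE M21 (GRCm38), which gave positions, lengths and sequences. Depth per library is unknown here. A gene counted as higher or lower when at least 1 transcript was called in that direction. The members and lists were chosen with earlier results of these data known. Genes named are *Setd2*, all members, in each list the called transcripts with the 2 largest rises and the 2 largest falls, 1 per gene, 10 further genes whether called or not, and *Actb* and *Gapdh*. Markers of fibroblasts and other cell types were listed likewise. *Slc3a2*, *Gss*, *Cth*, *Gstm2* and *Chac2* fall outside this rule and were chosen after their values were seen. Alternatives were other tests, filters on the mean of 10 and 100, and 4 scalings: on the median of all transcripts, on that of transcripts with at least 100, on 50 classes of GC content, and on *Actb*. Each scaling was subtracted as a fixed value, so its own error enters no p-value.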

Additional observations from a re-analysis of the deposited data

How the results depend on the processing

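Of 168 recomputed member effects, 149 kept their direction and their side of the threshold, 10 lost the call, 3 gained it and 6 turned, of which *Nfe2l2* relative to *Actb* also gained a call. Of 50 summed gene levels, 36 moved by less than limma's moderated standard error of the gene's most abundant transcript and 14 by more, 10 of them relative to *Actb*. Without the trend on the mean, limma's moderated test called 127 transcripts (51 higher, 76 lower), 0 members (0 higher, 0 lower) and 0 list genes (0 higher, 0 lower), against 8218 transcripts, 7 members and 29 higher and 17 lower list genes at an unadjusted p under 0.05, and *Setd2* (−1.99) was no longer called (adjusted p = 0.0537). The Wald test called 6233 transcripts (3566 higher, 2667 lower) and 34 higher and 17 lower list genes. Centring on GC content, with shifts from −0.40 to 0.22, gave 2128 transcripts (1144 higher) and 16 higher and 5 lower list genes, and turned a *Keap1* transcript (ENSMUST00000164812.7) to −0.082. Relative to *Actb*, which lowers each value by 0.46, 9819 transcripts were called (530 higher, 9289 lower), 3 members were higher and 5 lower, and 7 list genes were higher and 47 lower. The same scaling turned *Nfe2l2* to −0.29, the main *Txnrd1* transcript to −0.18 and *Keap1* transcripts to −0.0070, −0.37 and −0.071. Apart from the shift by *Actb*, the cause of these differences was not tested. No paired analysis was possible because the values analysed here are means and variances over the 4 libraries, and leaving out each replicate in turn was not run for the same reason. With 2 libraries in each group, the calls rest on variance shared across transcripts.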

Other observations

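Of the other called genes of the glutathione list, 5 were chosen for mention after their values were seen. *Slc3a2*, the heavy chain that carries the SLC7A11 transporter to the membrane, had its main transcript at 21925 in KD and 13879 in WT (log2(fold change) 0.66, adjusted p = 0.0190). Of its 31-base words 6.93% occur in no other tested transcript of the gene, whose summed level had 0.63. The SD of the main transcript from read assignment was 0.01 on the log2 scale. *Gss*, glutathione synthetase, which completes the synthesis that glutamate-cysteine ligase begins, was at 3805 in KD and 2500.4 in WT (0.61, adjusted p = 0.0300). *Cth*, which makes cysteine from cystathionine, was at 3899.8 in KD and 2646 in WT (0.56, adjusted p = 0.0260). In the other direction, the main transcript of *Gstm2*, a glutathione transferase, fell by 0.87 (adjusted p = 0.0234, with 80.5% of its words in no other gene), and the main transcript of *Chac2*, which degrades glutathione slowly, fell by 0.67 (adjusted p = 0.0414). With centring on GC content *Gss* had 0.39 and *Chac2* −0.28, and neither was called (adjusted p = 0.0759 and 0.235). The adjusted p-values are from limma's moderated test over all transcripts, and relative to *Actb* each of these log2(fold changes) is lower by 0.46, and the named transcripts of *Slc3a2*, *Gss* and *Cth* were not called.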
